A study of Rattus norvegicus with 9 samples.

Results

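The Hox genes encode homeodomain transcription factors that give cells their address along the body axis and the limbs. In mammals they lie in 4 clusters, HoxA to HoxD, on separate chromosomes, and are numbered by paralogy group from 1 at the anterior end to 13 at the posterior end. Genes at the anterior end of a cluster are switched on earliest and nearest the head, those at the posterior end later and nearer the tail and the limb tips. Connective tissue and stromal cells of the adult keep much of the Hox pattern of the site they came from, so the set of Hox genes a mesenchymal cell transcribes is known as a positional code. The proteins bind DNA together with cofactors of the Pbx and Meis families. Polycomb complexes keep silent Hox genes off, trithorax complexes keep active ones on, and retinoic acid is a classical inducer of the anterior genes.

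The members were the rows of the deposited gene table whose symbol was Hoxa, Hoxb, Hoxc or Hoxd followed by a number. There were 38 such rows, with 35 different symbols, among 33539. They were measured by sequencing of polyadenylated RNA from mesenchymal stem cells (MSCs) of rat bone marrow, a stromal population able to form bone, fat and cartilage. All 3 groups, Fast, Medium and Slow, had spent 48 h in an SA hydrogel, a gel whose composition beyond that abbreviation is not given in the sources used here. They differed in the rate at which the gel relaxed mechanical stress, shared a low glucose DMEM medium with serum and antibiotics, and had 3 libraries each. The labels give no strain, sex or age of the animals, no gel-free control, and no word on whether replicate libraries had separate animals or cultures behind them, so p-values measure only the spread between libraries, which may be technical.

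The 9 libraries held 14128980 to 15779328 counts each, and a floor of 3 counts lay between 0.1877 and 0.2151 CPM, the unit of read counts scaled to library size and TMM factor. All 12 stromal markers were detected. Their summed level ran from 22653 to 25962 CPM in Fast, 17787 to 18666 in Medium gels and 16195 to 16801 in Slow. Col1a1 alone made up most of this sum in the Medium and Slow libraries, at 11375 ± 139.6 and 9311 ± 53.98 CPM (mean and SD of 3). Its level in Fast is not given here. The sum is thus weighted towards this gene and does not count the markers evenly. Single stromal markers did not move one way. With Fast set against Slow, 5 were higher and 4 lower, and the median log2 difference was 0.05. Cxcl12 (log2 2.27) and Pdgfrb (0.84) were among those higher in Fast, Nt5e (-1.65) and Cd44 (-1.05) among those lower. All 15 myeloid markers were detected too, at a summed 2966 to 3114 CPM in Fast, 2072 to 2088 in Medium gels and 1766 to 1840 in Slow. Of 14 tested, 10 were higher and 2 lower in Fast than in Slow, with a median of 0.68. For these stromal and myeloid counts, the background is the 42.9% of all tested genes called between Fast and Slow (edgeR adjusted p under 0.05). Of all tested genes, 21.2% were higher and 21.7% lower in Fast. Endothelial, lymphoid and erythroid markers summed to at most 5.692, 1.578 and 3.493 CPM in any library, with Cldn5, Ms4a1, Cd3g, Cd79b, Hbb and Hba1 at 0. The part of the stromal and myeloid marker differences in the Hox values below was not tested. In these bulk libraries, fewer cells of a type and less RNA per cell cannot be told apart.

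Under the name rule, the counts of these MSC libraries gave a central to posterior HoxC and HoxD code, with few in HoxA and HoxB. HoxA is uncertain, because 6 of its 11 genes had more than 1 row once copies under other symbols were included. Its low counts therefore do not show that it was silent. Which cells of the bulk libraries held the code was not tested. Of 11899 Hox counts over all libraries, HoxC held 72.99%, HoxD 24.41%, HoxA 1.471% and HoxB 1.126%. After the filter on low counts, 6 of 8 HoxC rows (Hoxc4, Hoxc5, Hoxc6, Hoxc8, Hoxc9 and Hoxc10) and 4 of 9 HoxD rows (Hoxd3, Hoxd4, Hoxd8 and Hoxd9) were left. None of the 11 HoxA and 10 HoxB rows under the name rule passed. The 10 rows that passed held 96.82% of the Hox counts, and the 28 others shared 378 counts.

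**Figure D1:**
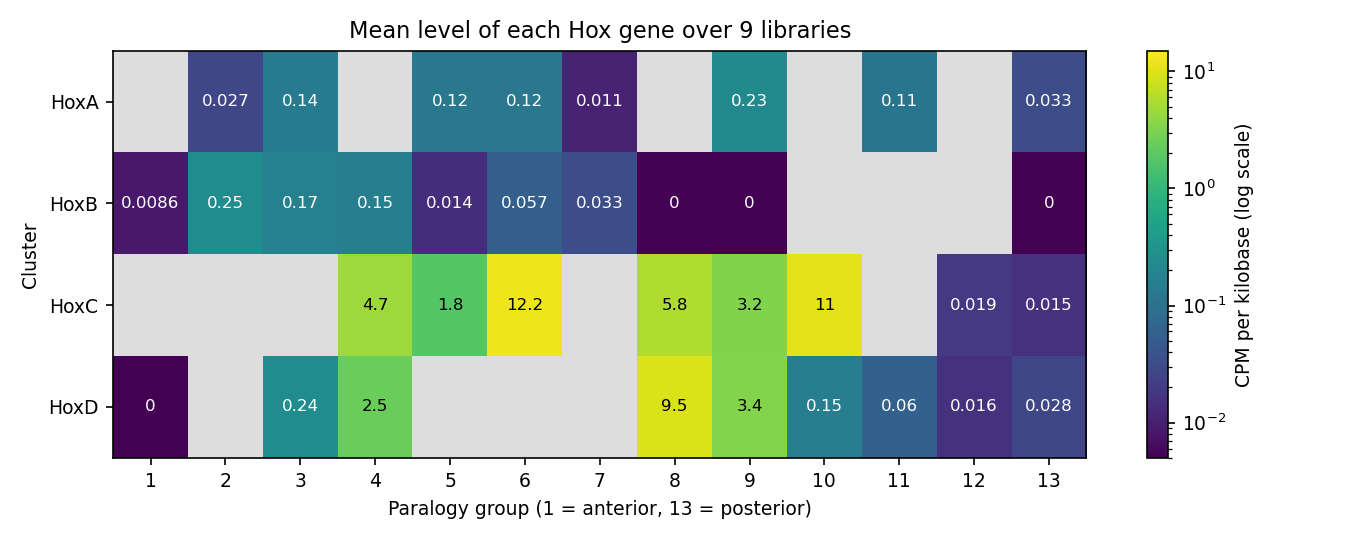
Mean level of each Hox gene over the 9 libraries, in CPM per kilobase on a log colour scale, by cluster (rows) and paralogy group (columns). Grey squares have no row under the name rule, and where several rows share a symbol the highest is shown; HoxC from group 4 to 10 and HoxD from 4 to 9 stand out, with Hoxc6 at 12.2 and Hoxc10 at 11, against at most 0.25 in HoxA and HoxB.

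The grid of mean levels shows where the code ended within each cluster under the name rule. In HoxC the last of the rows under that rule with more than a few counts was Hoxc10. A row outside the name rule, described as homeobox C11, was also detected, at 4.16 ± 0.3872 CPM in Fast (SD, n = 3). That row had 32 to 70 counts per library, beside 31 to 68 for Hoxc9, so an end at Hoxc10 holds for the name rule only. Hoxc12 and Hoxc13, genes of skin appendages and the tail end of the axis, had 0 or 1 count per library. In HoxD the code stopped beyond Hoxd9. Hoxd10 had 3 to 8 counts per library and Hoxd11, which in mouse shapes the forearm and the sacrum, had 0 to 4. Hoxd12 and Hoxd13, which in mouse pattern the digits, had 0 to 2 counts in every library. At the anterior end Hoxd1 had no count in any library, which by a floor of 3 counts allows up to 0.2151 CPM (Medium replicate 3).

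Among the 28 rows that did not pass, 5 were at 0 in all 9 libraries. These were Hoxb8, Hoxb9, Hoxb13, Hoxd1 and 1 of the 3 rows named Hoxa5. A further 14 rows peaked at 1 to 3 counts in a library, 7 at 4 to 9, and 2 at 10 or more, namely Hoxa6 with up to 16 and Hoxb4 with up to 13. Beside Hoxb4, the HoxB genes with the most counts were Hoxb3 (1 to 9 per library) and Hoxb2 (1 to 8), which in mouse act in the hindbrain. The summed HoxB level was 0.7287 ± 0.364 CPM per kilobase in Fast, 0.8049 ± 0.1721 in Medium gels and 0.503 ± 0.0452 in Slow (SD, n = 3).

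HoxA needs care, because the table lists part of this cluster more than once on chromosome 4 and on an unplaced scaffold. Hoxa5 had 3 rows and Hoxa11 had 2, and the Hoxa6 row runs from 82173293 to 82263302 across other HoxA rows. A further 8 rows carry the description of a Hox gene under another symbol, 7 of them from HoxA. Reads from near-identical copies may have been split or dropped in counting, so HoxA levels are uncertain. With the rows of each gene summed, an alternative chosen after seeing the data, 11 HoxA genes resulted, 6 of them with more than 1 row. Hoxa10 was then the HoxA gene with 10 or more counts in at least 3 libraries, at 1 to 23 counts. A row of that gene outside the name rule, Rn60_4_1469.2, described as Hox-A10-like, had 85 counts over all libraries and passed the filter by itself, with a log2 difference of Fast over Slow of -0.16 ± 0.865 (edgeR adjusted p = 0.8999). The summed HoxA level under the name rule was 1.046 ± 0.1729 CPM per kilobase in Fast, 0.6744 ± 0.2127 in Medium gels and 0.9819 ± 0.2329 in Slow.

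Per kilobase of the deposited gene length, Hoxc6 stood highest at 12.21 ± 1.354 CPM (SD over 9 libraries), at the 59.84th percentile of all tested genes. In mouse Hoxc6 marks the forelimb and upper thoracic levels of the axis. Hoxc10, a lumbar and hindlimb gene, followed at 10.97 ± 1.702, and Hoxd8 at 9.54 ± 1.561. Neither Hoxc6 and Hoxc10 nor Hoxc10 and Hoxd8 differed by more than their spread. Hoxc8 (5.821 ± 0.352), a thoracic gene that in mouse also acts in rib and cartilage formation, and Hoxc4 (4.684 ± 0.5601) each lay clear of the next gene. Hoxd9, Hoxc9 and Hoxd4, at 3.412 ± 0.4767, 3.244 ± 0.8269 and 2.486 ± 0.5296, followed in that order with gaps smaller than their spread. Hoxc5 lay clear below them at 1.827 ± 0.4044. Hoxd3, which in mouse helps form the first neck vertebrae, was the lowest at 0.2437 ± 0.1318, below the untested Hoxb2 at 0.2453.

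**Figure D2:**
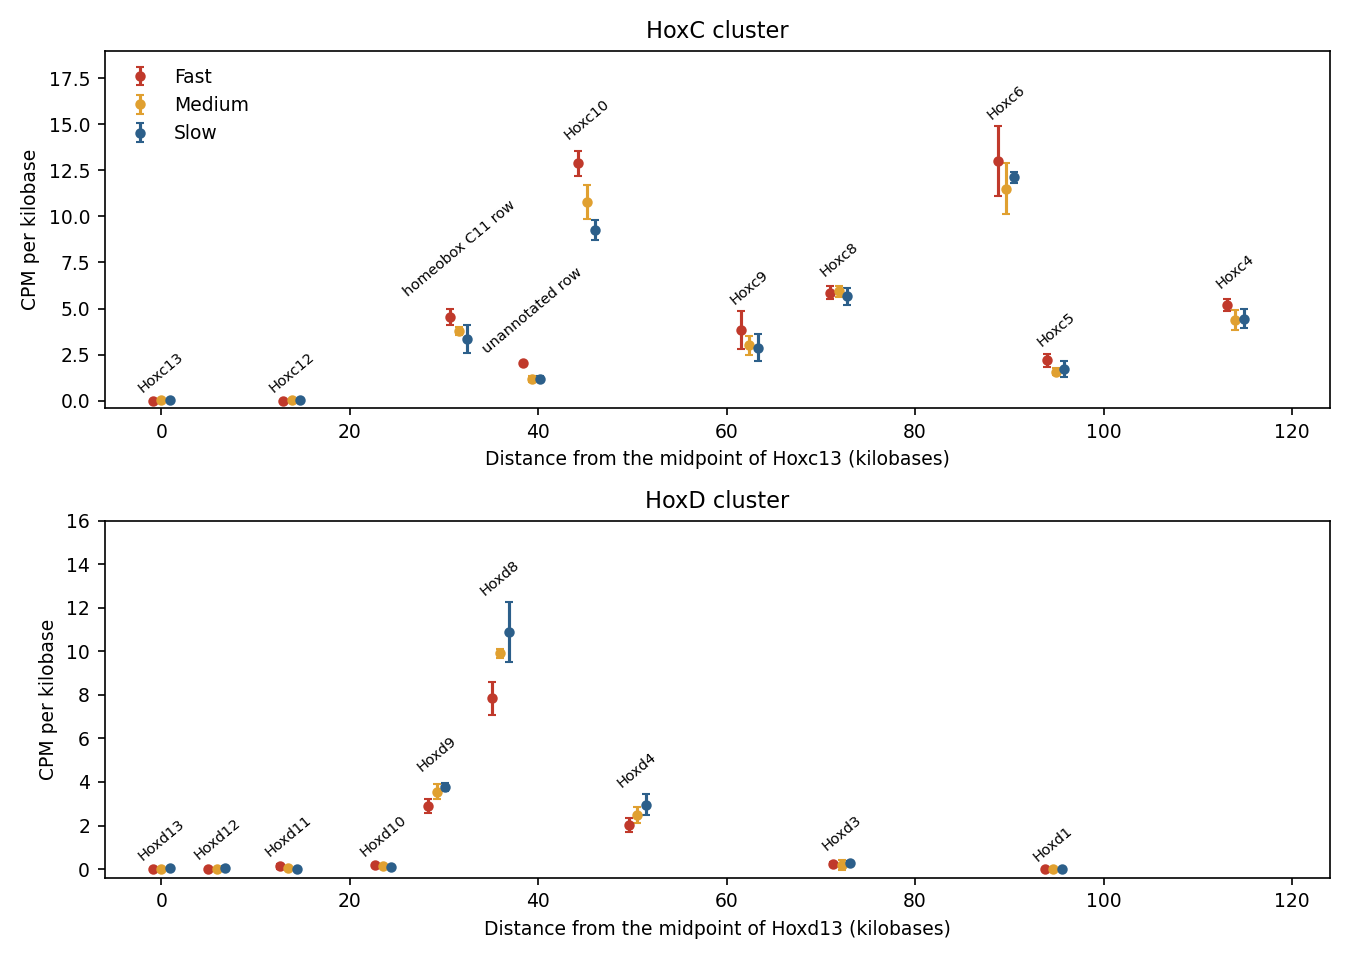
Level along the HoxC and HoxD clusters in CPM per kilobase (mean and SD of 3 libraries per group) against distance from the midpoint of the paralogy group 13 gene, in kilobases. The group means of Hoxc10 fall from 12.88 in Fast to 9.244 in Slow while those of Hoxd8 climb from 7.834 to 10.88.

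The plot of level along the clusters gives the tested genes in their order on the chromosome. In the deposited table HoxC lies on chromosome 7, plus strand. Hoxc10 (ENSRNOG00000016149) spans 144577465 to 144582622, Hoxc9 144595960 to 144598632 and Hoxc8 144605058 to 144608538. They are followed by Hoxc6 (144623555 to 144625516), Hoxc5 (144628120 to 144631542) and Hoxc4 (144647587 to 144650129). HoxD lies on chromosome 3, plus strand, with Hoxd9 (ENSRNOG00000001580) from 61620192 to 61622359, Hoxd8 (ENSRNOG00000042480) from 61627383 to 61628628, Hoxd4 (ENSRNOG00000001578) from 61634005 to 61651056 and Hoxd3 from 61658245 to 61670282. Each is a protein-coding gene. Hoxc5 shares its interval with Mir615, and Hoxd4 with Mir10b and, on the other strand, with AABR07052559.1; whether strand was used in counting is not stated.

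The widest contrast in relaxation rate was that between Fast and Slow. In Fast against Slow gels, Hoxc10 was higher and Hoxd8 and Hoxd4 were lower (edgeR quasi-likelihood test, adjusted p under 0.05). That is 3 of the 10 tested members, where 42.9% of all tested genes were called in this comparison, 21.2% as higher and 21.7% as lower. Thus the share of members called was not above the background. The direction divided by cluster. All 6 tested HoxC genes had a log2 difference above 0 and all 4 tested HoxD genes one below 0, though Hoxc6 turned to -0.0205 without Fast replicate 1 and Hoxc8 to -0.0169 without Slow replicate 3. The median log2 difference of the 10 members was 0.08, beside 0.01 over all tested genes.

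Hoxc10, in mouse a gene of the lumbar spine and of hindlimb motor neurons, had the smallest adjusted p of the members. Its level was 24.57, 22.64 and 22.4 CPM in the Fast libraries, 20.12, 17.51 and 20.65 in Medium gels and 17.61, 15.64 and 16.73 in Slow. Every Fast library lay above every Medium and Slow library, while 1 Medium library fell within the Slow range. The log2 difference of Fast over Slow was 0.48 ± 0.085 (SE, 95% interval 0.296 to 0.6622, edgeR adjusted p = 0.0003685), and this call held in every alternative run. Against Medium it was 0.26 ± 0.084 (interval 0.07588 to 0.4374, edgeR adjusted p = 0.03017). The call against Medium was lost with DESeq2 (adjusted p = 0.06605) and in edgeR without Fast replicate 1 (adjusted p = 0.09264), Fast replicate 2 (0.05125) or Medium replicate 2 (0.1388).

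**Figure D3:**
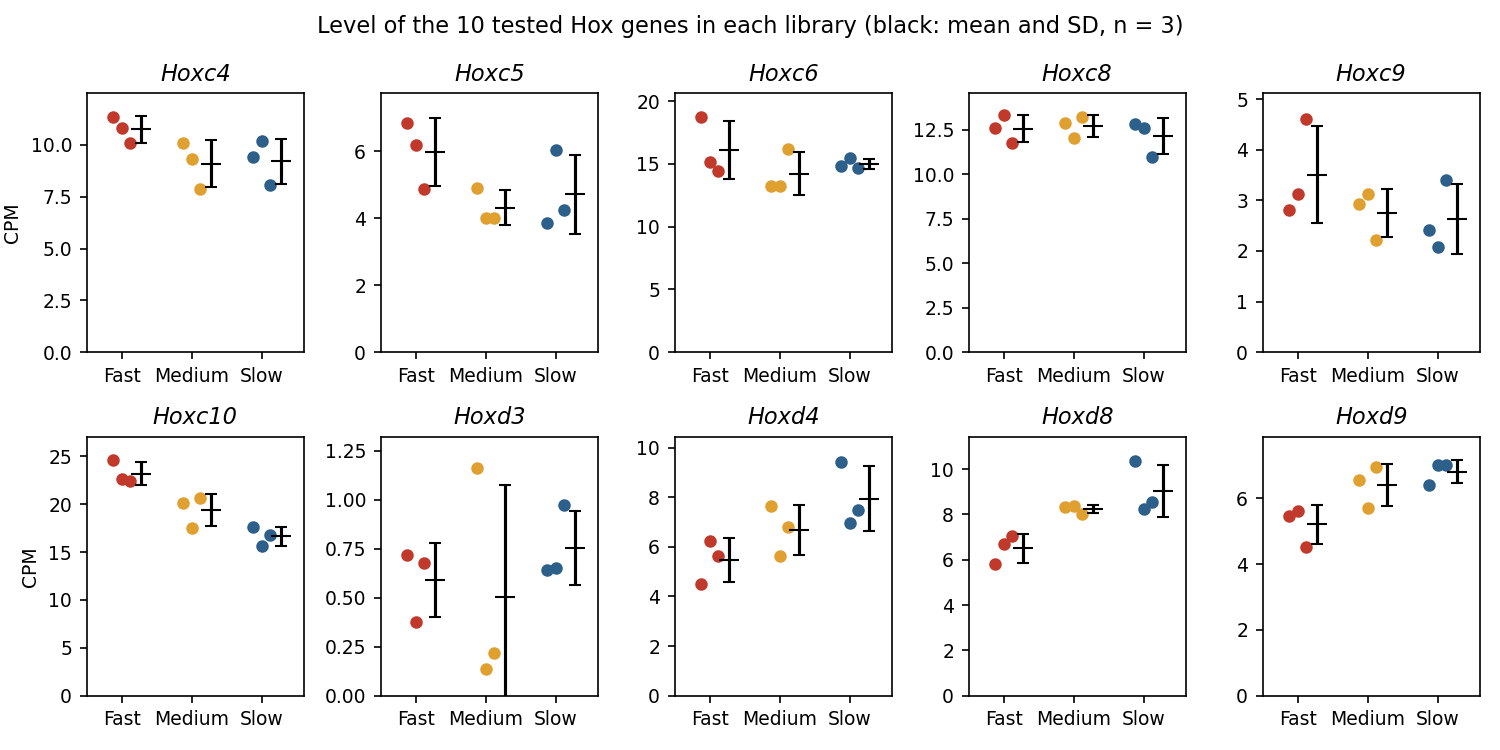
Level of each of the 10 tested Hox genes in CPM, on axes starting at 0, with each of the 9 libraries as a point coloured by group and the mean and SD (n = 3) in black. Fast lies above Slow without overlap in Hoxc10 and below it without overlap in Hoxd4, Hoxd8 and Hoxd9; the other 6 genes overlap.

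The plot of single libraries shows the opposite order in HoxD. Hoxd8, a paralogue of Hoxc8, was at 5.8, 6.693 and 7.038 CPM in Fast, 8.322, 8.35 and 8.031 in Medium gels and 10.34, 8.24 and 8.536 in Slow. All Fast libraries lay below all others, and Medium and Slow overlapped. The log2 difference of Fast against Slow was -0.47 ± 0.136 (interval -0.7639 to -0.1799, edgeR adjusted p = 0.01185). It was -0.37 without Slow replicate 1, the highest library, and then missed the threshold (edgeR adjusted p = 0.0607).

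Hoxd4, a gene of the hindbrain and neck with a retinoic acid response in mouse, was at 4.497, 6.255 and 5.616 CPM in Fast, 7.64, 5.634 and 6.812 in Medium gels and 9.411, 6.942 and 7.495 in Slow. Fast and Slow did not overlap, and Medium overlapped both. The log2 difference of Fast against Slow was -0.54 ± 0.176 (interval -0.9179 to -0.1622, edgeR adjusted p = 0.02298). The call rested on single libraries: the log2 difference was -0.42 without Fast replicate 1, its lowest library (edgeR adjusted p = 0.08708), and -0.40 without Slow replicate 1, its highest (0.111).

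Hoxd9, which in mouse acts at lumbar and sacral levels, was at 5.474, 5.63 and 4.534 CPM in Fast, 6.549, 5.702 and 6.956 in Medium gels and 6.416, 7.007 and 7.009 in Slow. All Fast libraries lay below all others, yet the log2 difference against Slow of -0.38 ± 0.150 (interval -0.7068 to -0.06234) missed the threshold (edgeR adjusted p = 0.0524). It passed with limma-voom (adjusted p = 0.0445) and with limma on log2(FPKM + 1) (0.01665). In all, the Fast and Slow libraries did not overlap for 4 of the 10 tested members, against 51.7% of all tested genes. An unadjusted p under 0.05 was also found for 4.

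The other 6 tested members did not pass the test between Fast and Slow. The forelimb-level gene Hoxc4 had a log2 difference of 0.22 ± 0.129 (interval -0.05588 to 0.4981) and Hoxc5 one of 0.34 ± 0.202 (-0.093 to 0.7735). For Hoxc9, which in mouse sets the thoracic identity of motor neurons, it was 0.41 ± 0.26 (-0.1442 to 0.9709), a wide interval on 31 to 68 counts per library; it came to 0.17 without Fast replicate 3 and 0.64 without Slow replicate 3. Hoxc6 and Hoxc8 had the narrowest intervals of these, from -0.1401 to 0.3462 and from -0.167 to 0.2686. For Hoxc8, a difference anywhere within its interval is compatible with these libraries. Hoxd3 had 2 to 17 counts per library and an interval from -1.652 to 0.9425, so this depth says little about it.

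The promoters of the HoxD genes whose Fast libraries stood below all Slow libraries are shown because these 3 genes lie side by side and differed in the same direction. Sequences are from RefSeq, build GRCr8, chromosome 3, plus strand, 250 bases before to 50 after each gene's start; 5 of the 10 tested members had an entry there. Hoxd9, which missed the threshold, was added after its values were seen. Capitals mark matches on either strand to the CCAAT box (CCAAT or ATTGG), the GC box (GGGCGG) and the core site of the retinoic acid receptor (AGGTCA or TGACCT). The windows are chr3:80007756-80008055, chr3:80014973-80015272 and chr3:80021636-80021935.
Hoxd9: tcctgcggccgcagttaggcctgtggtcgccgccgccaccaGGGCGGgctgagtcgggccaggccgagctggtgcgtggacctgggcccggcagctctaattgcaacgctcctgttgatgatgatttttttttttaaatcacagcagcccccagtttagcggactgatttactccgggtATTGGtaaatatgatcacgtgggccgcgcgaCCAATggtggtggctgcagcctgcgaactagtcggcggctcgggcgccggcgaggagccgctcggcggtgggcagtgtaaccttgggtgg
Hoxd8: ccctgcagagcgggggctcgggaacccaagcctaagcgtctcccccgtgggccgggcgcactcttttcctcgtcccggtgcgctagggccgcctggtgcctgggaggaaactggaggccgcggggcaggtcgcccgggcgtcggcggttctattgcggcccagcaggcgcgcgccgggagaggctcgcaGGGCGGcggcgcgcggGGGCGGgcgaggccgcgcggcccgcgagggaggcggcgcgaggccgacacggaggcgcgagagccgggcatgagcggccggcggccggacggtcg
Hoxd4: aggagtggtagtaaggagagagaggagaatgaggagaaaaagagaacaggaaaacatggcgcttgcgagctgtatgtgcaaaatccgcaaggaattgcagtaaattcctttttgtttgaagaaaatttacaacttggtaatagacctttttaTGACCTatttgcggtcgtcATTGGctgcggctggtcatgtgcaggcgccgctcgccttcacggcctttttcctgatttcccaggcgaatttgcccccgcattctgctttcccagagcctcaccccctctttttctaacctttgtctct

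The 3 windows differed widely in base composition. The Hoxd8 window held 49 CpG dinucleotides at 79% GC and the Hoxd9 window 27 at 62.7%, beside medians of 7 and 51.7% over all 33469 RefSeq promoters. The Hoxd4 window, with 12 CpG at 47.3% GC, was nearer to those medians. Hoxd9 had 2 CCAAT matches and 1 GC box, Hoxd8 had 2 GC boxes and no CCAAT, and Hoxd4 had 1 CCAAT match and 1 AGGTCA. Of all promoters, 37.5% held CCAAT, 33.1% GGGCGG and 16.2% AGGTCA. Of 21 Hox promoters in the table, 13, 11 and 3 did. The other motifs searched on both strands were TATAAA (4 Hox promoters, 14.2% of all), the Pbx-Hox core TGATNNAT (4, 9.1%), the homeodomain core TAATTA (1, 5.36%) and the retinoic acid receptor element DR5, a direct repeat of AGGTCA (0, 0.00896%). No match of these 4 fell in the windows printed. A match is a string of letters in a window and not a measured site.

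**Figure D4:**
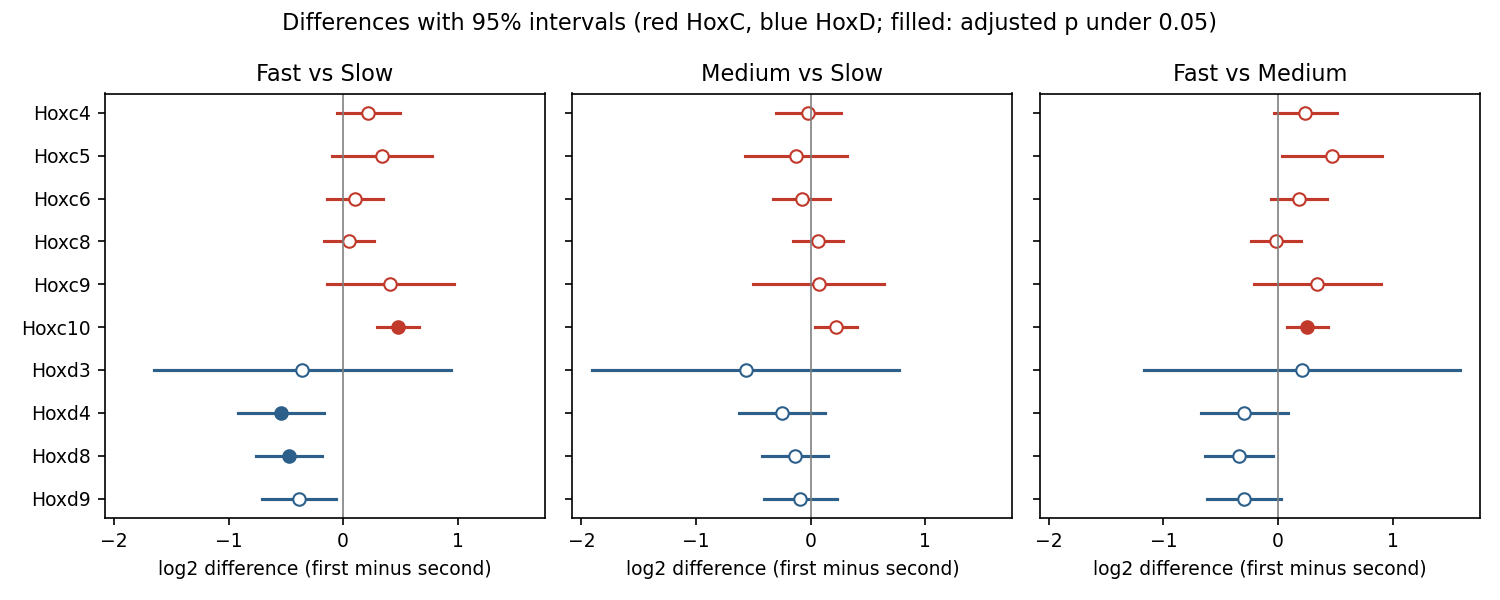
Log2 difference (first group minus second) with its 95% interval for the 10 tested Hox genes in each pair of groups, HoxC in red and HoxD in blue, filled where the edgeR adjusted p is under 0.05. Filled points are Hoxc10, Hoxd4 and Hoxd8 in Fast vs Slow and Hoxc10 in Fast vs Medium, and there are none in Medium vs Slow.

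Between Fast and Medium the plot of intervals shows a single filled point. Hoxc10 was the 1 member called, where 33.0% of all tested genes were, 15.6% as higher and 17.3% as lower. Libraries did not overlap for 3 members (Hoxc10, Hoxd8 and Hoxd9), beside 44.6% of all genes. Hoxd8 had a log2 difference of -0.34 ± 0.137 (interval -0.6327 to -0.04525, edgeR adjusted p = 0.07385), and passed with limma on log2(FPKM + 1) (adjusted p = 0.03313). Hoxd9 had -0.29 ± 0.151 (edgeR adjusted p = 0.1571) and Hoxd4 -0.29 ± 0.178 (0.2329). Hoxc5, at 6.843, 6.193 and 4.872 CPM in Fast and 4.911, 4.005 and 4.016 in Medium, had the largest log2 difference above 0 among these members, 0.47 ± 0.204 (interval 0.03254 to 0.9061, edgeR adjusted p = 0.09513). Of the 6 HoxC genes 5 were above 0. The exception was Hoxc8 at -0.02, which turned to 0.0282 with upper quartile factors and to 0.05 when libraries were scaled by size alone. The Fast libraries served in both of these comparisons, which are therefore not independent.

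No Hox gene passed the test between Medium and Slow. None was called with edgeR, DESeq2, limma-voom or limma on log2(FPKM + 1), where edgeR called 10.3% of all tested genes, 4.74% as higher and 5.57% as lower in Medium. An unadjusted p under 0.05 was found for 1 member, Hoxc10 (log2 difference 0.22 ± 0.087, interval 0.03602 to 0.4088, edgeR adjusted p = 0.1325). Libraries overlapped for all 10, beside 29.5% of all genes without overlap. Hoxd4 and Hoxd8 had log2 differences of -0.25 ± 0.174 (interval -0.6199 to 0.1278) and -0.13 ± 0.135 (-0.4213 to 0.1554), which came to -0.11 and -0.0257 without Slow replicate 1, the highest library for both. When all 3 groups were tested together, Hoxc10 (edgeR adjusted p = 0.001233) and Hoxd8 (0.03021) differed, beside 42.2% of all tested genes, and Hoxd4 did not pass (0.06182).

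The authors' deposited table of their own comparisons was read for the 10 tested members only, and not for the 28 other Hox rows. In it, 1 of these 10 has an adjusted p under 0.05. It is Hoxc10 in Slow against Fast, with a log2 fold change of -0.4728 and an adjusted p of 0.001033 in the authors' deposited table. Hoxd4 and Hoxd8 have adjusted p-values of 0.05232 and 0.05941 in the authors' deposited table for the same pair.

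Summed over all rows of a cluster under the name rule, with no test, the HoxC total was highest in Fast. It came to 45.73, 41.94 and 41.27 CPM per kilobase in Fast, 37.84, 35.41 and 38.52 in Medium gels and 36.36, 36.44 and 35.61 in Slow. The HoxD total ran the other way, at 12.47, 13.83 and 13.65 in Fast, 17.17, 15.67 and 16.33 in Medium gels and 19.9, 16.81 and 17.63 in Slow. For both clusters Fast did not overlap the other groups, and Medium and Slow overlapped each other. Single genes weighed most in these gaps. Between the Fast and Slow means, the largest in HoxC was that of Hoxc10, at 12.88 and 9.244 CPM per kilobase. In HoxD it was that of Hoxd8, at 7.834 and 10.88.

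**Figure D5:**
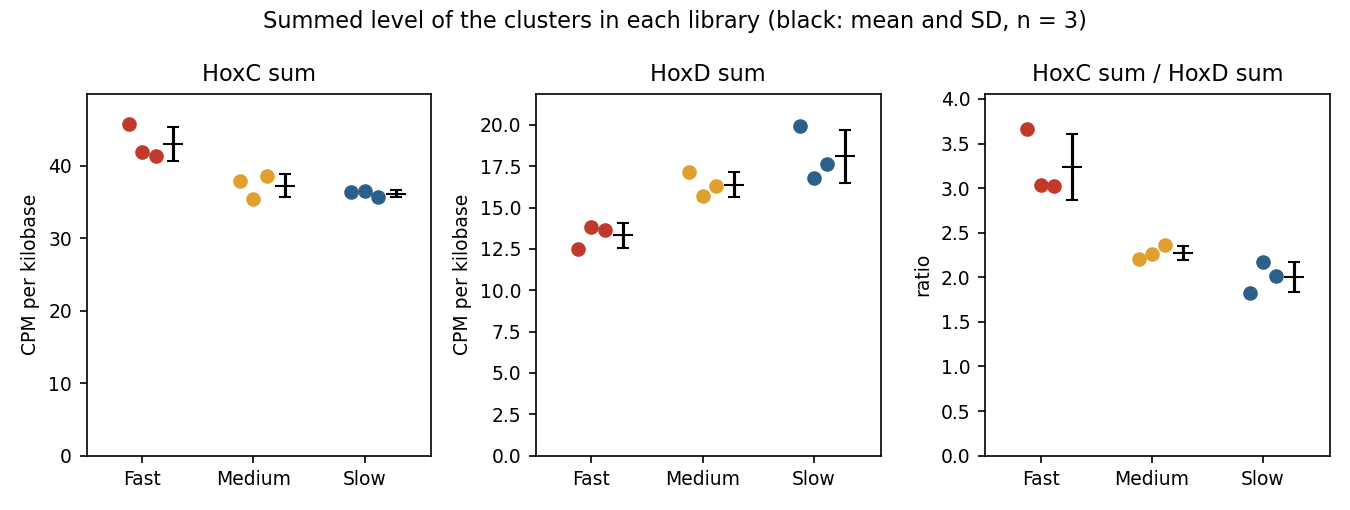
Summed level of the HoxC rows and of the HoxD rows in CPM per kilobase, and the ratio of the sums, on axes starting at 0; each point is a library and black marks the mean and SD (n = 3). The ratio lies at 3.023 to 3.668 in Fast, 2.204 to 2.359 in Medium gels and 1.827 to 2.167 in Slow.

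The ratio of the HoxC to the HoxD total compares genes within a library and so does not move with the scaling between libraries. It was 3.241 ± 0.3692 in Fast, 2.274 ± 0.07864 in Medium gels and 2.005 ± 0.1708 in Slow (SD, n = 3). As the plot of cluster sums shows, no library of a group reached into the range of another. Medium and Slow lay close, with the lowest Medium library at 2.204 and the highest Slow library at 2.167. The ratio was not recomputed in the alternatives, and no Hox gene passed the test between Medium and Slow. A separation of these 2 groups is therefore not established. HoxC made up 73.98 ± 1.484% of the Hox total in Fast, 67.58 ± 0.2857% in Medium gels and 64.88 ± 2.093% in Slow, and HoxD 22.98 ± 2.03%, 29.74 ± 0.8975% and 32.46 ± 1.746%. The total over all 38 rows was 58.07 ± 2.115, 55.12 ± 2.31 and 55.74 ± 1.977 CPM per kilobase, with overlap between all groups.

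By position along the clusters, the posterior genes (groups 9 to 13, 15 rows) summed to 20.3 ± 0.6526 CPM per kilobase in Fast, 18.04 ± 0.9617 in Medium gels and 16.56 ± 1.263 in Slow. Hoxc10 made up most of this sum, with Hoxd9 going against it. The homeobox C11 row, outside the name rule, was not included. The lowest Fast library, at 19.55, was above the highest Medium library, at 18.61, and the highest Slow library, at 17.82. The central genes (groups 4 to 8, 16 rows) summed to 36.76 ± 1.652, 36.33 ± 1.119 and 38.46 ± 2.467, and all groups overlapped. Anterior genes (groups 1 to 3, 7 rows) reached 1.018 ± 0.4488, 0.7516 ± 0.2874 and 0.7186 ± 0.1537. Along HoxC the log2 difference of Fast over Slow was 0.22 at Hoxc4, 0.34 at Hoxc5, 0.10 at Hoxc6, 0.05 at Hoxc8, 0.41 at Hoxc9 and 0.48 at Hoxc10. Along HoxD it was -0.35 at Hoxd3, -0.54 at Hoxd4, -0.47 at Hoxd8 and -0.38 at Hoxd9. Whether the differences follow gene order was not tested.

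Beside Hoxc10 lies a transcript that was also higher in Fast than in the other groups. It is a row without a gene name on chromosome 7, minus strand, from 144571402 to 144577062, singled out after its values were seen. It ends 403 bases before Hoxc10 starts and begins 3822 bases after a row described as homeobox C11, which is listed under LOC100911859. Its level was 9.841, 10.45 and 10.35 CPM in Fast, 4.98, 6.517 and 6.31 in Medium gels and 6.844, 5.904 and 5.274 in Slow. All Fast libraries lay above all others. The log2 difference was 0.77 ± 0.146 over Slow (edgeR adjusted p = 0.0006526) and 0.78 ± 0.146 over Medium (0.000759), with Medium and Slow at -0.02 ± 0.151 from each other. The homeobox C11 row stood at 4.16 ± 0.3872 CPM in Fast, 3.457 ± 0.2012 in Medium gels and 3.066 ± 0.6962 in Slow, and did not pass between Fast and Slow (log2 difference 0.44 ± 0.207, edgeR adjusted p = 0.1053). It passed with limma on log2(FPKM + 1) (adjusted p = 0.04734), and the edgeR difference was 0.27 without Slow replicate 1.

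Among the proteins that work with Hox factors, 12 of 15 listed cofactors were tested. Fast against Slow, 3 were higher and 1 lower (median log2 difference 0.11), 4 of 12 called beside 42.9% of all tested genes. Meis1, a partner that binds DNA with Hox and Pbx proteins, was at 39.29 ± 1.889 CPM in Fast, 23.53 ± 1.308 in Medium gels and 26.23 ± 2.039 in Slow, a log2 difference of 0.58 ± 0.073 over Slow (edgeR adjusted p = 1.402e-05) and 0.74 ± 0.074 over Medium (2.045e-06). Its relative Meis3 rose by 0.28 ± 0.061 over Slow (0.001812). Tgif1, a related homeodomain repressor that binds similar sites, was lower in Fast, at 51.59 ± 3.302 against 70.27 ± 1.962 CPM (log2 -0.45 ± 0.053, edgeR adjusted p = 8.192e-06). Between Fast and Medium, Meis1 was higher and Tgif1 lower, beside 33.0% of all genes called. Between Medium and Slow, where 10.3% were called, Meis3 was higher (log2 0.21 ± 0.062, edgeR adjusted p = 0.04477) and Tgif1 lower (-0.19 ± 0.053, 0.03456). Both calls were lost without any single Medium library or without Slow replicate 2 or 3, at edgeR adjusted p up to 0.1574 and 0.1411. The Meis3 call was also lost without Fast replicate 3, and the Tgif1 call without Slow replicate 1. With limma on log2(FPKM + 1) both missed the threshold (adjusted p = 0.05073 and 0.08574). Meis3 also missed it with DESeq2 (adjusted p = 0.1029), and in edgeR with the replicate block (0.05323) or no filter beyond 1 count (0.06523). Tgif1 missed it in edgeR with library size only (adjusted p = 0.05348).

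Of 24 tested Polycomb genes, 2 were higher and 7 lower in Fast than in Slow, with a median log2 difference of -0.08. Cbx7, a reader of the repressive histone mark, was at 52.13 ± 4.519 CPM in Fast, 90.61 ± 1.687 in Medium gels and 95.98 ± 5.926 in Slow (log2 -0.88 ± 0.062 against Slow, edgeR adjusted p = 2.678e-08). Suz12, a core subunit of the complex that writes the mark, had -0.32 ± 0.083 (0.006257), and Pcgf5 -0.57 ± 0.143 (0.00486). Between Medium and Slow, where 10.3% of all tested genes were called, 0 were higher and 2 lower. Between Fast and Medium, where 33.0% were called, 0 were higher and 3 lower. Of 19 tested trithorax and activator genes, 1 was higher and 5 lower in Fast than in Slow (median -0.09). Aff4, the scaffold of the super elongation complex, was at 177.9 ± 3.72 CPM in Fast, 237.3 ± 2.811 in Medium gels and 287.4 ± 2.5 in Slow, and so differed in all 3 pairs (Fast against Slow log2 -0.69 ± 0.031, edgeR adjusted p = 1.327e-10). The counts in the other pairs were 0 higher and 1 lower for Medium against Slow and 2 and 2 for Fast against Medium. They stand beside the same 10.3% and 33.0% of all tested genes. With 9 of 24 and 6 of 19 members called between Fast and Slow, neither list exceeded the 42.9% of all genes.

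Retinoic acid genes were compared because the anterior Hox genes respond to it. Of 18 listed, 9 were tested, and 1 was higher and 3 lower in Fast than in Slow, 4 of 9 beside 42.9% of all tested genes. Dhrs3, which turns retinaldehyde back into retinol, was at 16.88 ± 0.3226 CPM in Fast, 34.63 ± 1.509 in Medium gels and 45.09 ± 3.287 in Slow (Fast against Slow log2 -1.42 ± 0.071, edgeR adjusted p = 5.721e-10). Cyp26b1, which degrades retinoic acid, was at 24.4 ± 2.087, 34.52 ± 1.606 and 34.73 ± 1.841 CPM. Between Medium and Slow 2 were higher and 1 lower, where 10.3% of all genes were called, and between Fast and Medium 1 and 5, where 33.0% were.

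Genes that flank the 4 clusters were listed to see values outside the Hox rows themselves. Of 21 tested, 4 were higher and 6 lower in Fast than in Slow, with a median log2 difference of -0.01. Of all tested genes, 42.9% were called in that pair, 21.2% as higher and 21.7% as lower in Fast. Lnp, which lies beside HoxD, was lower in Fast as Hoxd8 and Hoxd4 were, at 18.19 ± 0.7508 against 25.11 ± 1.842 CPM (log2 -0.46 ± 0.084, edgeR adjusted p = 0.0004316). Tax1bp1 and Snx10, beside HoxA, had log2 differences of -0.31 ± 0.034 and -0.35 ± 0.068, and Copz2, beside HoxB, one of 0.31 ± 0.048 (all edgeR adjusted p under 0.05). Between Medium and Slow, where 10.3% of all tested genes were called, 1 was higher and 0 lower. Between Fast and Medium, where 33.0% were called, 1 was higher and 3 lower. These calls were read against the shares of all tested genes given above, and nothing particular to the clusters was tested.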

How the data were processed

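Counts per gene and library were deposited by the authors in 1 table, per the file headers, beside FPKM values and the authors' log2 fold changes and p-values for each pair of groups, with no test named; their group means were not used. The deposited gene length was used for levels per kilobase, and FPKM in 1 alternative. Per the submitters' processing notes, HTSeq, Cufflinks 2.1.1 and Bowtie 0.12.9 were used, in roles not stated, and so was a mouse build, mm10, although the identifiers are rat Ensembl ones. Coordinates are therefore those of the table, with the build not given, and 1 line of the table was empty and not used here.

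Genes were filtered with filterByExpr (minimum count 10, smallest group 3), which left 14406 genes with 99.909% of counts, scaled with TMM and tested in edgeR 4.0.16 (R 4.3.3) by quasi-likelihood. All 9 libraries shared 1 model with a term per group and 6 residual degrees of freedom, and p-values were adjusted over all tested genes by the Benjamini-Hochberg method, with a threshold of 0.05. The procedure was tested on simulated data. Cluster sums, shares and ratios were described without a test. Alternatives were other scalings, filters, DESeq2 1.42.0, limma 3.58.1 (voom, or log2(FPKM + 1)), a replicate block, only the 6 libraries of a pair, and each library left out. Named were all tested Hox genes and, of each other list, up to 4 genes with the smallest adjusted p per pair. The further condition that a list gene's call held in every alternative was added after the values were seen; it left out Pbx2 and Rarg, for example, between Fast and Slow, and was not applied to Meis3 and Tgif1 between Medium and Slow. The members and lists were chosen with earlier results of these data known. Intervals and floors cover counting error and library spread only. Some genes that the rule names are left out here.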

Additional observations from a re-analysis of the deposited data

How the results depend on the processing

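Between Fast and Slow, 3 Hox genes were called, and 1 to 3 with each library left out (1, Hoxc10, without Slow replicate 1). limma-voom and limma on log2(FPKM + 1) called 4. Between Fast and Medium, where 1 was called, DESeq2 called 0, limma on log2(FPKM + 1) called 2, and leaving out libraries gave 0 to 1 (0 without Fast replicate 1, Fast replicate 2 or Medium replicate 2). Of the 2 genes that differed among all 3 groups, 1, Hoxc10, was left with upper quartile factors, library size only, no filter beyond 1 count, the replicate block and DESeq2, and 1 to 2 with libraries left out. Between Medium and Slow all alternatives gave 0. The replicate numbers did not pair the libraries (correlation of same-numbered deviations -0.03227 to 0.04562 over 9 pairs); with the replicate block 3, 0 and 1 Hox genes were called in the 3 pairs. All-gene counts stayed within 1.5 times, but the share of calls higher in Fast over Slow was 49.4% with TMM, 59.7% with upper quartile factors and 65.1% when scaled by library size alone, and over Medium 47.5%, 57.9% and 63.9%.

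With library size only, the log2 difference of the HoxC sum between Fast and Slow was 0.34, that of the central sum 0.0208 (from -0.0655) and that of the posterior sum 0.38; between Fast and Medium the central sum had 0.0868 and the posterior sum 0.24. Without division by length HoxC held 77.44%, 72.01% and 68.91% of the Hox total in Fast, Medium and Slow, HoxD 19.75%, 25.66% and 28.46%, and in Medium the central genes 64.61% and the posterior genes 33.9%. The differences of single genes that turned sign were all uncalled, and are given here as ranges with each library left out in turn. Between Fast and Slow these were Hoxc6 (-0.0205 to 0.1766) and Hoxc8 (-0.0169 to 0.0954). Between Medium and Slow they were Hoxc4 (-0.1071 to 0.0730), Hoxc5 (-0.2529 to 0.0935), Hoxc8 (-0.001012 to 0.1082), Hoxc9 (-0.0764 to 0.297) and the row without a gene name beside Hoxc10 (-0.1015 to 0.0958). Between Fast and Medium they were Hoxc8 (-0.0599 to 0.0289) and Hoxd3 (-0.2375 to 1.702). Hoxc8 there also had 0.0282 (upper quartile factors) and 0.0548 (library size only). Summed levels, which carry no test, crossed 0 for HoxA between Fast and Slow (-0.0289 to 0.3008), HoxB (-0.4692 to 0.212) and the central genes (-0.0137 to 0.0507) between Fast and Medium, and the anterior genes between Medium and Slow (-0.1823 to 0.3419). The causes were not tested. Depth limits Hoxd3, Hoxc9 and all of HoxA and HoxB.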

Other observations

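Transcription factors outside the Hox clusters that also mark position in limb, face and trunk mesenchyme were listed in the same way. Of 24 tested, 6 were higher and 6 lower in Fast than in Slow, with a median log2 difference of 0.25, beside 0.01 over all tested genes and 42.9% of those called. Tbx18, a gene of limb and somite mesenchyme, was at 66.29 ± 5.272 CPM in Fast, 36.29 ± 0.4344 in Medium gels and 33.19 ± 2.503 in Slow (SD, n = 3). Its log2 difference over Slow was 1.00 ± 0.069 (edgeR adjusted p = 2.408e-08). Dlx5, which acts in jaw and bone formation, was at 11.53 ± 1.737, 5.064 ± 0.7828 and 3.309 ± 1.15 CPM (log2 over Slow 1.80 ± 0.214, edgeR adjusted p = 7.9e-06). Shox2, a gene of the upper limb bones, was higher in Fast over Slow by 0.55 ± 0.070 on the log2 scale (edgeR adjusted p = 1.543e-05). Tbx3, a limb gene with a repressor product, went the other way, at 51.88 ± 3.669 CPM in Fast and 69.62 ± 4.267 in Slow (log2 -0.43 ± 0.060, edgeR adjusted p = 4.181e-05). Between Fast and Medium 6 were higher and 2 lower of the 24 tested, where 33.0% of all tested genes were called. Between Medium and Slow 0 were higher and 1 lower, where 10.3% were called.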
